A study of Homo sapiens with 12 samples.

Results

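The 10 genes described here are genes of megakaryocytes and platelets: NFE2, GP9, GP1BA, GP1BB, GP6, PF4, PPBP, THBS1, TUBB1 and PLEK. They were taken by symbol from a table of 56593 distinct gene symbols, in which each of the 10 stands on a single line. Expression was measured by RNA-seq in 12 libraries, 3 for each of 4 populations. The first was H1, an established human embryonic stem cell line, kept undifferentiated. The others were sorted from H1 cultures that were turned toward blood in a defined medium, with activin A and BMP4 first and VEGF and bFGF from then on. They were APLNR+ cells of day 2 (mesoderm, sorted by the apelin receptor), CD31+CD34+ cells of day 5 (hemogenic endothelial progenitors) and CD43+ cells of day 8 (hematopoietic progenitors). All 4 populations therefore come from 1 cell line. Thrombopoietin, the cytokine that drives megakaryocyte growth, was not among the agents named for the cultures up to day 8. Nothing in the labels says that the 3 libraries of a population came from separate cultures, so the tests measure the spread between these libraries.

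Megakaryocytes are the large marrow cells that shed platelets. They arise beside red cells from a shared progenitor, under GATA1, FLI1, RUNX1 and NF-E2, and they load platelets with adhesion receptors, granules of chemokines and matrix proteins, and a ring of microtubules. Integrin and early granule genes switch on in progenitors, whereas the adhesion receptor for von Willebrand factor, the collagen receptor and the platelet tubulin belong to later maturation. In the embryo, early megakaryocytes arise in the yolk sac beside primitive red cells.

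Promoter sequences were available for 7 of the 10 genes, as windows of 270 bases that hold the 250 bases before the annotated start and the 20 bases after it (RefSeq, GRCh38.p14). PF4, GP1BA and NFE2 had no entry. The letters GATAA are one form that GATA factors bind, and 4 of the 7 windows held them on either strand, against 21.4% of the windows of all 35116 genes. Those 4 windows are shown because they include a gene that stayed near 0 (GP6) as well as genes that rose. GATAA, or its complement TTATC, is in capitals, and each window reads 5′ to 3′ along its gene. GATAG, another form that GATA factors bind, was not counted or marked, and the GP1BB window holds it.

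GP9 (chr3:129060529-129060798, plus strand): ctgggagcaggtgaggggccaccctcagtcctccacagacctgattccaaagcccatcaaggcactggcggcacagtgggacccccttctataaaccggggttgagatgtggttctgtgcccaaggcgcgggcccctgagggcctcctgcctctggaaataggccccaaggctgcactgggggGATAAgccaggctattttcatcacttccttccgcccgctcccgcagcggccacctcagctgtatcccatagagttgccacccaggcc

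GP1BB (chr22:19723289-19723558, plus strand): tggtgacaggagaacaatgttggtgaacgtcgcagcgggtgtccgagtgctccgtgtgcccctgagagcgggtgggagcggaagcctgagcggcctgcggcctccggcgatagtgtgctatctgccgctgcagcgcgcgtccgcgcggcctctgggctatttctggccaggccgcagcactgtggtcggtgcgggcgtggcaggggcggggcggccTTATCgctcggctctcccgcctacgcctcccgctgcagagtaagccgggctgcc

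PPBP (chr4:73988171-73988440, minus strand): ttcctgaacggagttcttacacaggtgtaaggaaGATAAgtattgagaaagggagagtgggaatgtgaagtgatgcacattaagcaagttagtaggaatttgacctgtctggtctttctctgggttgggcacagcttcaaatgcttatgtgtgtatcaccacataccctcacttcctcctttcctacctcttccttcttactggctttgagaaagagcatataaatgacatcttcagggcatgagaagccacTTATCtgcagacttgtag

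GP6 (chr19:55038245-55038514, minus strand): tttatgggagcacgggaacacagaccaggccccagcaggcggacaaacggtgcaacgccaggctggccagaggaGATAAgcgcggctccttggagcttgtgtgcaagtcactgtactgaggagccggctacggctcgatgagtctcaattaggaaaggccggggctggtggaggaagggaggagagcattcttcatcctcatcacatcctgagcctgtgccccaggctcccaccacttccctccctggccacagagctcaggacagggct

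The match began 67 bases before the start in GP9, 34 before it in GP1BB and 176 before it in GP6. PPBP had 2 matches, beginning 216 bases before the start and 2 bases after it. The longer form AGATAA, which contains GATAA and so overlaps it, was found in PPBP and GP6, 2 of the 7 windows, against 9.7% of all windows. GGAAG, the core letters that ETS factors such as FLI1 bind, stood in all 7 windows, but also in 68.1% of all windows. TGAGTCA, the core bound by NF-E2 and by AP-1 factors, stood in 0 of the 7 and in 4.6% of all windows. TUBB1, PLEK and THBS1 held no GATAA in their windows. These are matches of letters only.

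Levels are given in FPKM, a read density corrected for how long the transcript is and how many reads the library holds. This allows levels of different genes to be set side by side. Small RNA and mitochondrial genes made up 57.0% to 58.7% of the summed FPKM in H1 libraries and 15.6% to 20.2% in CD43+ libraries. The share ran from 27.6% to 66.3% in APLNR+ and from 10.6% to 57.3% in CD31+CD34+ libraries, and the levels given were not rescaled for it. Absolute depth is unknown. Relative depth was estimated from the most frequent ratio of a gene's low value to its low value in CD43+ replicate 3. The estimate ran from 0.553 (CD31+CD34+ replicate 1) to 1.27 times (CD31+CD34+ replicate 2) that of CD43+ replicate 3. By it, replicate 1 was the shallowest library in each population. A value of exactly 0 can be a failed estimate in this table, since EEF1A1, a translation factor gene used by every cell, was listed at 0 in 6 of the 12 libraries. The gene of the last sorting marker followed its label, since SPN, which encodes CD43, stood at 60.3, 90.6 and 75.7 FPKM in CD43+ cells, against 2.84, 4.20 and 4.06 FPKM in CD31+CD34+ cells. CD34 averaged 47.7 FPKM in CD31+CD34+ cells and 22.2 FPKM in CD43+ cells. APLNR was as high in CD31+CD34+ cells (mean 403 FPKM) as in APLNR+ cells (383 FPKM). PECAM1, which encodes CD31, was higher in CD43+ cells (mean 95.9 FPKM) than in CD31+CD34+ cells (55.2 FPKM).

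Together the 10 genes summed to between 283 and 364 FPKM in the CD43+ libraries. The sum was between 13.7 and 16.0 FPKM in CD31+CD34+ cells, between 12.9 and 14.4 FPKM in APLNR+ cells and between 7.65 and 9.97 FPKM in H1. Nearly all of the sum in CD43+ cells, from 90.7% to 92.1% in a library, came from 4 genes. The mean level in CD43+ cells fell in the order NFE2, PLEK, PF4, THBS1, GP9, GP1BA, GP1BB, TUBB1, PPBP and GP6. The ranges of the 3 libraries overlapped between NFE2 and PLEK, between PLEK and PF4, between GP9 and GP1BA and between TUBB1 and PPBP, so these neighbours are not ordered beyond their spread. NFE2 was nevertheless above PLEK, and PLEK above PF4, within each of the 3 libraries. In bulk samples, fewer cells of a type and less RNA per cell cannot be told apart.

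**Figure D1:**
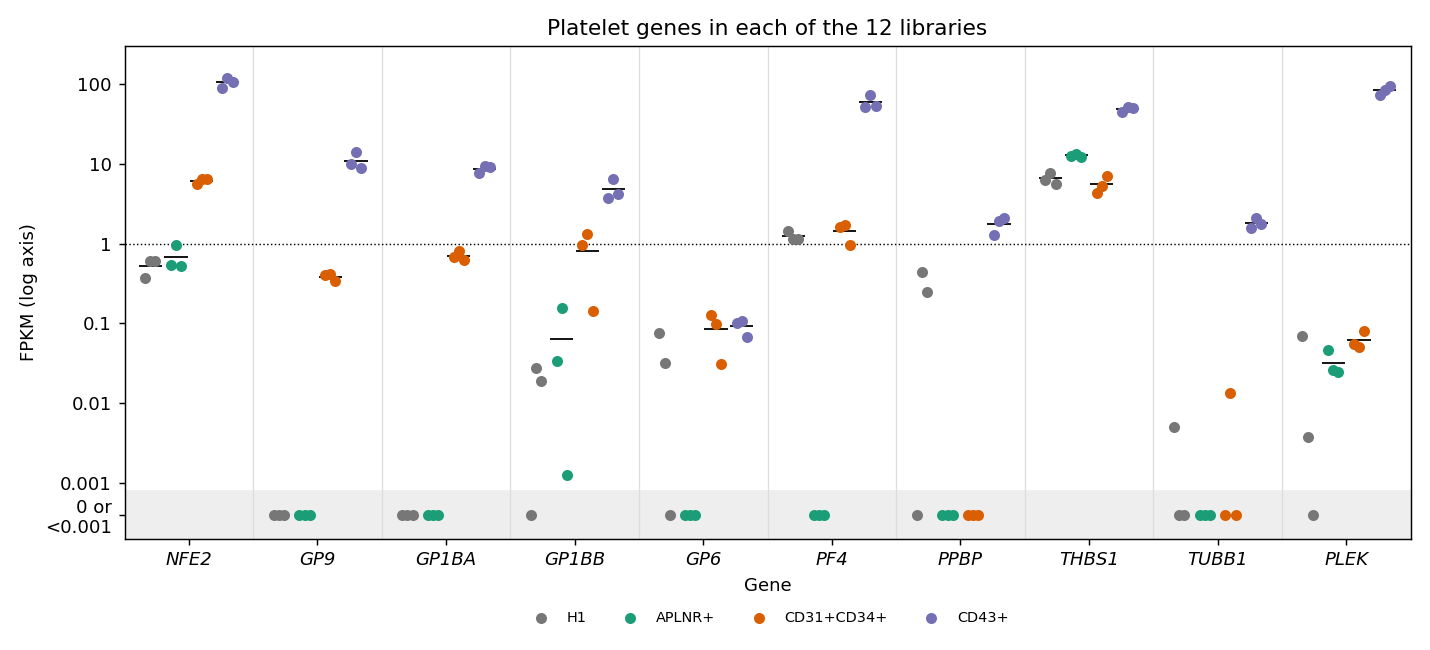
FPKM of each of the 10 genes on a log axis, with a point for each library, a colour for each population and a short bar at the mean where all 3 libraries were above 0.001 FPKM. The grey strip holds values of 0 or below 0.001, the dotted line marks 1 FPKM, and in 9 of the 10 genes the 3 CD43+ points lie above all points of the other populations, GP6 being the exception.

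Changes were tested with limma on log2(FPKM + 1), over the 14840 genes that reached 1 FPKM in at least 3 libraries. Calls needed an adjusted p below 0.05 together with a 2-fold or larger change, that is 1 on the log2 scale. The added 1 understates the change of genes at low levels. Of the 10 genes, 9 were tested and GP6 was too low. PPBP, GP9, GP1BA, GP1BB, TUBB1 and PLEK passed the filter only with the CD43+ libraries, so a difference at the last step was built into their selection, and the counts that follow describe them without supporting anything. The same holds for partner and marker genes named below that passed only with the CD43+ libraries, such as ITGB3 and HBA1. From CD31+CD34+ to CD43+, the 9 tested genes were called raised and 0 lowered, against 5.58% raised and 8.79% lowered of all tested genes. From H1 to CD43+ the counts were again 9 and 0, against 14.6% and 22.5%. With no filter on low values, GP6 was tested as well and 9 of the 10 genes were called raised at the last step, against 2.45% of all genes with any value above 0. The lowest CD43+ library exceeded the highest CD31+CD34+ library in 9 of the 10 genes, against 28.0% of tested genes. An exact two-sided permutation test of 3 against 3 libraries gives 0.1 for each of these 9 genes, the smallest p it allows.

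At the 2 earlier steps, 1 and 3 of the 9 were called. From H1 to APLNR+, 0 of the 9 were called raised and 1, PF4, lowered, against 8.3% and 7.62% of all tested genes. From APLNR+ to CD31+CD34+, 2 were called raised (NFE2 and PF4) and 1 lowered (THBS1), against 12.5% and 17.1%. With 0.1 added in place of 1, 5 were called raised at that step. Consecutive steps share a population, so the values of a gene at neighbouring steps are not independent.

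**Figure D2:**
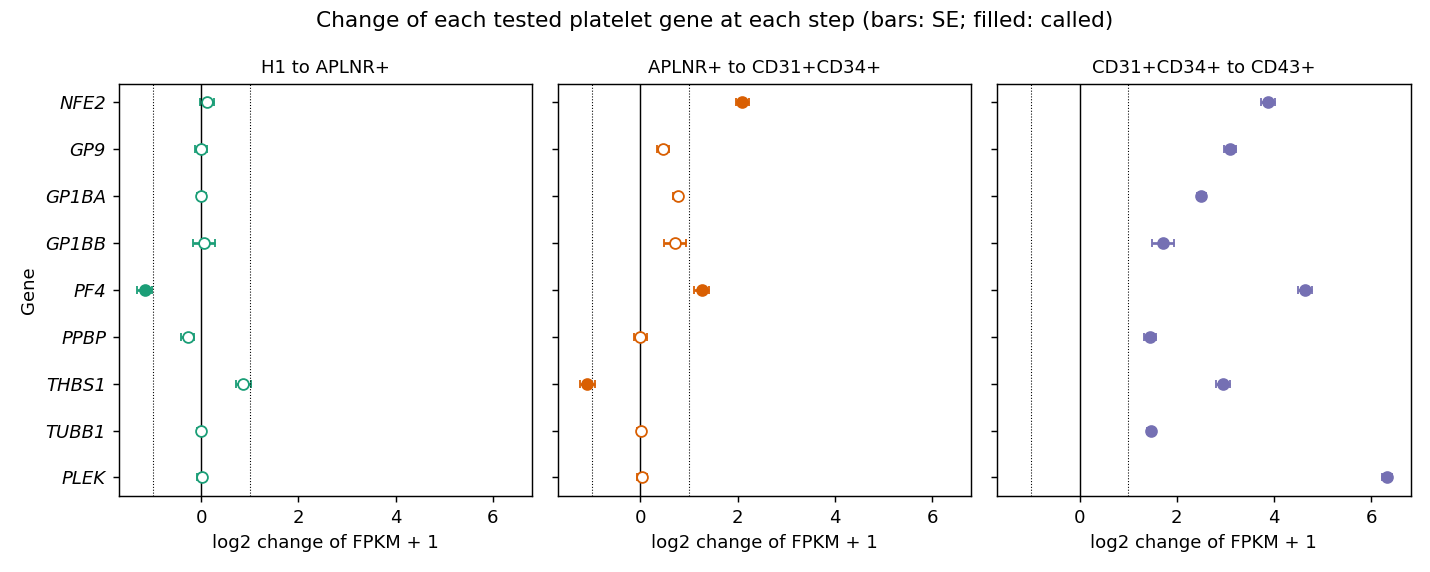
Change of log2(FPKM + 1) for the 9 tested genes at the 3 consecutive steps, with the standard error as a bar and filled points for called changes. Dotted lines mark a 2-fold change, and at the last step the points run from 1.45 (PPBP) to 6.32 (PLEK).

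NFE2 encodes the blood-specific subunit of NF-E2, the transcription factor that directs late megakaryocyte maturation and platelet release and that also acts in red cells. It was listed at 0.374, 0.609 and 0.608 FPKM in H1, at 0.537, 0.962 and 0.527 FPKM in APLNR+ cells, at 5.61, 6.42 and 6.47 FPKM in CD31+CD34+ cells, and at 89.2, 119 and 107 FPKM in CD43+ cells. The libraries of H1 and APLNR+ cells overlapped, and each later population lay wholly above the one before. It rose by 2.10 ± 0.14 on the log2 scale from APLNR+ to CD31+CD34+ (SE, limma adjusted p 5.01e-08) and by 3.88 ± 0.14 from CD31+CD34+ to CD43+ (adjusted p 6.56e-10). On this scale it had the largest change of the 9 tested genes at day 5, when its mean was 5.87% of that in CD43+ cells.

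None of the tested relatives of NFE2 was called raised beside it. NF-E2 is a pair of NFE2 with a small MAF protein, and the small MAF gene MAFG stood at 9.16, 10.5 and 8.01 FPKM in CD43+ cells and at 10.1, 8.59 and 8.07 FPKM in CD31+CD34+ cells, a change of 0.04 ± 0.12. MAFK changed by 0.24 ± 0.16, which was not called. NFE2 thus went from below MAFG to between 9.73 and 13.4 times its level within a CD43+ library. MAFF, the third small MAF gene, fell by 1.42 on the log2 scale (adjusted p 1.28e-07). Of the 8 other family and partner genes tested (NFE2L1, NFE2L2, NFE2L3, BACH1, BACH2 and the small MAF genes), 0 were called raised and 2 lowered, MAFF and NFE2L1. The median change was -0.01 against 0.00 over all tested genes, of which 5.58% were raised and 8.79% lowered. The NFE2L1 change of -1.05 missed the 2-fold limit without CD43+ replicate 1 (-0.95) and under quantile normalization (-0.97).

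GP9, GP1BA and GP1BB encode subunits of the GPIb-IX-V complex, the platelet receptor for von Willebrand factor. GP1BA carries the binding site, while GP9 and GP1BB are needed to bring the complex to the surface. GP9 was listed at 0 in all 6 libraries of H1 and APLNR+ cells, at 0.401, 0.413 and 0.343 FPKM in CD31+CD34+ cells and at 10.02, 13.9 and 8.96 FPKM in CD43+ cells. GP1BA was likewise listed at 0 in those 6 libraries, then at 0.681, 0.816 and 0.624 FPKM in CD31+CD34+ cells and at 7.57, 9.34 and 9.06 FPKM in CD43+ cells. Both genes were thus above 0 in every CD31+CD34+ library and in no earlier one. GP1BB was at 4.08e-61 (in effect 0), 0.0278 and 0.0188 FPKM in H1, at 0.0342, 0.155 and 0.00126 FPKM in APLNR+ cells, at 0.969, 1.32 and 0.142 FPKM in CD31+CD34+ cells and at 3.68, 6.50 and 4.17 FPKM in CD43+ cells. Its lowest CD31+CD34+ library lay within the range of APLNR+ cells.

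At the last step, GP9 rose by 3.09 ± 0.12 on the log2 scale (limma adjusted p 1.95e-09), GP1BA by 2.50 ± 0.09 (adjusted p 7.86e-10) and GP1BB by 1.71 ± 0.23 (adjusted p 5.9e-05). The ratios of mean FPKM were 28.5, 12.2 and 5.90. At the step before, their changes of 0.47, 0.77 and 0.71 were all under the 2-fold limit. That call depended on the offset: with 0.1 added in place of 1, the changes were 2.28, 3.01 and 2.24 and all 3 were called raised at day 5. Without CD31+CD34+ replicate 3, GP1BB changed by 1.01 and was called at day 5 with the offset of 1 as well. GP5, the remaining subunit of the complex, stayed under 1 FPKM and was not tested. It was listed at 0.826, 0.601 and 0.923 FPKM in CD43+ cells and at no more than 0.087 FPKM in any other library.

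Within each CD43+ library GP9 stood at 2.15 to 2.72 times GP1BB, and at 0.990 to 1.49 times GP1BA. GP1BB is the least certain of the 3 values. In the GENCODE release 29 annotation, 64.8% of its exonic bases lie in exons of SEPT5, a neighbour on the same strand that reads through into it, and all of its 1504 stretches of 50 bases recur in the readthrough gene SEPT5-GP1BB. SEPT5, which the table lists under a date, stood at 12.1, 11.3 and 9.56 FPKM in CD31+CD34+ cells and at 9.37, 10.2 and 7.47 FPKM in CD43+ cells, a change of -0.26 that was not called. GP1BA overlaps CHRNE on the opposite strand over 3.88% of its exonic bases, and CHRNE went from 0.215, 0.165 and 0.113 FPKM to 2.24, 2.57 and 2.15 FPKM at the last step. GP9 shares no stretch of 50 bases with another gene. How the overlapping reads were assigned, and whether strand was used, is not given in the sources used here.

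GP6 encodes the platelet collagen receptor. It was listed at 0.101, 0.107 and 0.0681 FPKM in CD43+ cells and at 0.126, 0.0971 and 0.0307 FPKM in CD31+CD34+ cells, so the populations overlapped (exact permutation p 0.8, two-sided, 3 against 3 libraries). In H1 it was at 0.0755, 0.0321 and 0 FPKM, and it was listed at 0 in the 3 APLNR+ libraries. No difference between the last 2 populations was detectable at these levels. A neighbouring gene model shares 8.09% of the stretches of 50 bases in GP6. Its signaling partner FCER1G, the Fc receptor gamma chain that myeloid and mast cells also use, rose from 1.60, 1.56 and 1.62 FPKM to 16.7, 28.4 and 29.2 FPKM, by 3.27 ± 0.18 on the log2 scale (limma adjusted p 2.19e-08). CLEC1B, another activating receptor of platelets, was between 0.0947 and 0.19 FPKM in CD43+ cells and was not tested.

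PF4 and PPBP encode the most abundant chemokines of platelet alpha granules, platelet factor 4 and pro-platelet basic protein, and they are neighbours in the CXC chemokine cluster. PF4 was at 1.42, 1.16 and 1.15 FPKM in H1, listed at 0 in the 3 APLNR+ libraries, at 1.61, 1.71 and 0.948 FPKM in CD31+CD34+ cells and at 52.2, 73.5 and 53.4 FPKM in CD43+ cells. H1 and CD31+CD34+ cells overlapped, and CD43+ cells lay far above both. PF4 rose by 4.64 ± 0.15 on the log2 scale at the last step (limma adjusted p 3.92e-10), a ratio of mean FPKM of 41.9. The fall of 1.16 from H1 to APLNR+ and the rise of 1.26 from APLNR+ to CD31+CD34+ were both called, but each rests on the 3 values listed at 0.

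PPBP stayed far below PF4. It was listed at 0, 0.436 and 0.248 FPKM in H1, at 0 in the 6 libraries of APLNR+ and CD31+CD34+ cells, and at 1.28, 1.89 and 2.10 FPKM in CD43+ cells. The rise to CD43+ was 1.45 ± 0.13 (adjusted p 2.3e-06), and since the earlier values are listed at 0 no ratio is given. PF4 stood at 40.8, 38.9 and 25.5 times PPBP in the 3 CD43+ libraries. PF4V1, a near copy of PF4 that shares 13.7% of the stretches of 50 bases in PF4, was at 0.877, 1.21 and 0.671 FPKM in CD43+ cells and listed at 0 in CD31+CD34+ cells. A part of the PF4 reads could therefore be split with it.

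Of the other genes of the cluster, 4 were tested and 2 were called raised at the last step, against 5.58% of all tested genes. CXCL2, an attractant of neutrophils, went from 0.697, 0.662 and 0.593 FPKM to 8.06, 11.8 and 12.9 FPKM, a rise of 2.83 ± 0.15 on the log2 scale. CXCL3, of like function, rose by 2.68 ± 0.16. CXCL5, made by platelets and epithelium, and CXCL6 changed by -0.28 and 0.36 and were not called.

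THBS1 encodes thrombospondin 1, a matrix glycoprotein of alpha granules that many other cells also secrete. It was the single member above 1 FPKM in all 12 libraries. It stood at 6.29, 7.71 and 5.62 FPKM in H1, at 12.6, 13.2 and 12.3 FPKM in APLNR+ cells, at 4.26, 5.20 and 7.11 FPKM in CD31+CD34+ cells and at 44.3, 52.2 and 50.1 FPKM in CD43+ cells. The level was thus high in APLNR+ cells, lower in CD31+CD34+ cells, which overlapped H1, and highest in CD43+ cells. From H1 to APLNR+ it changed by 0.87 ± 0.15 (limma adjusted p 0.000358), under the 2-fold limit, and by 1.06, past it, with small RNA and mitochondrial genes left out. From APLNR+ to CD31+CD34+ it fell by 1.09 on the log2 scale (SE 0.15, adjusted p 3.4e-05). That call was lost without CD31+CD34+ replicate 1 (-0.95) and with replicates 2 and 3 alone (-0.96), although the libraries of the 2 populations did not overlap. At the last step it rose by 2.95 ± 0.15 (adjusted p 1.31e-08), a ratio of mean FPKM of 8.84.

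None of the other thrombospondin genes was called raised at the last step. Of the 3 tested, THBS3 was called lowered there, at -1.01 ± 0.13, a value at the limit that missed it under upper-quartile scaling (-0.99), under quantile normalization (-0.96), and without CD31+CD34+ replicate 1 (-0.94), CD31+CD34+ replicate 2 (-0.98) or CD43+ replicate 1 (-0.93), and that fell just short without CD43+ replicate 2. THBS2, at 0.0706, 0.331 and 0.175 FPKM in CD43+ cells, changed by -0.16. CD47, a thrombospondin receptor, rose from 2.47, 2.26 and 2.27 FPKM to 27.3, 26.6 and 26.2 FPKM, by 3.06 ± 0.08 on the log2 scale (adjusted p 9.63e-11). CD36, another of its receptors, was at no more than 0.134 FPKM in CD43+ cells. Thrombospondin 1 can activate latent TGF-beta. In the list of its receptors and of genes that TGF-beta can induce, 6 were tested. At the last step 1 was raised and 2 lowered, against 5.58% and 8.79% of all tested genes. The lowered genes were SMAD7, an inhibitor of the pathway, which fell by 2.92 on the log2 scale, and CYR61, a matrix protein, which fell by 1.70.

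TUBB1 encodes the beta tubulin of the platelet microtubule ring. It was listed at 0.00503, 0 and 0 FPKM in H1, at 0 in the 3 APLNR+ libraries, at 0, 0.0135 and 0 FPKM in CD31+CD34+ cells and at 1.57, 2.07 and 1.76 FPKM in CD43+ cells. All 3 CD43+ libraries were above 1 FPKM and no earlier library was above 0.0135 FPKM. The rise at the last step was 1.47 ± 0.08 on the log2 scale (limma adjusted p 1.49e-08). In the same annotation TUBB1 overlaps ATP5F1E, a subunit of ATP synthase, on the opposite strand over 34% of its exonic bases. That gene, listed under its older symbol ATP5E, stood at 23.4, 20.1 and 23.0 FPKM in CD43+ cells, at 8.57, 8.31 and 9.37 FPKM in CD31+CD34+ cells and at 34.3, 27.1 and 28.6 FPKM in H1, where TUBB1 was at or near 0. The part of the overlap in the TUBB1 value was not tested.

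Most other beta tubulins fell at the last step. Of 7 tested, 0 were called raised and 5 lowered, against 5.58% and 8.79% of all tested genes. The median change was -1.83 against 0.00 over all tested genes. TUBB (-0.79) and TUBB4A (0.23) were not called. TUBB2A fell from 49.2, 50.8 and 47.3 FPKM to 4.32, 4.52 and 2.41 FPKM, by 3.43 on the log2 scale (adjusted p 5.2e-09). TUBB2B fell by 3.26 and TUBB3, best known from neurons, fell by 2.71. TUBB6, a broadly used form, fell by 1.83 but in CD43+ cells still stood at 32.3 to 41.1 times TUBB1. Summed over 8 genes, the other beta tubulins held between 283 and 335 FPKM in CD43+ cells, against 890.4 to 975 FPKM in CD31+CD34+ cells.

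PLEK encodes pleckstrin, the main substrate of protein kinase C in platelets, which leukocytes also express. It was at 0.0685, 0.00378 and 0 FPKM in H1, at 0.0461, 0.0259 and 0.0243 FPKM in APLNR+ cells, at 0.0544, 0.0503 and 0.0804 FPKM in CD31+CD34+ cells and at 72.9, 85.2 and 93.9 FPKM in CD43+ cells. It had the largest change of the 9 tested genes at the last step, 6.32 ± 0.10 on the log2 scale (limma adjusted p 1.69e-12). The mean in CD31+CD34+ cells was 0.0735% of that in CD43+ cells, against 2.39% for PF4, 3.51% for GP9, 8.17% for GP1BA, 11.3% for THBS1 and 17.0% for GP1BB. Its relative PLEK2, which is not restricted to blood, went from 2.74, 4.64 and 5.46 FPKM to 0.185, 0.215 and 0.222 FPKM and fell by 2.09 on the log2 scale (adjusted p 8.97e-07). The kinase gene PRKCB rose by 2.45 ± 0.13.

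**Figure D3:**
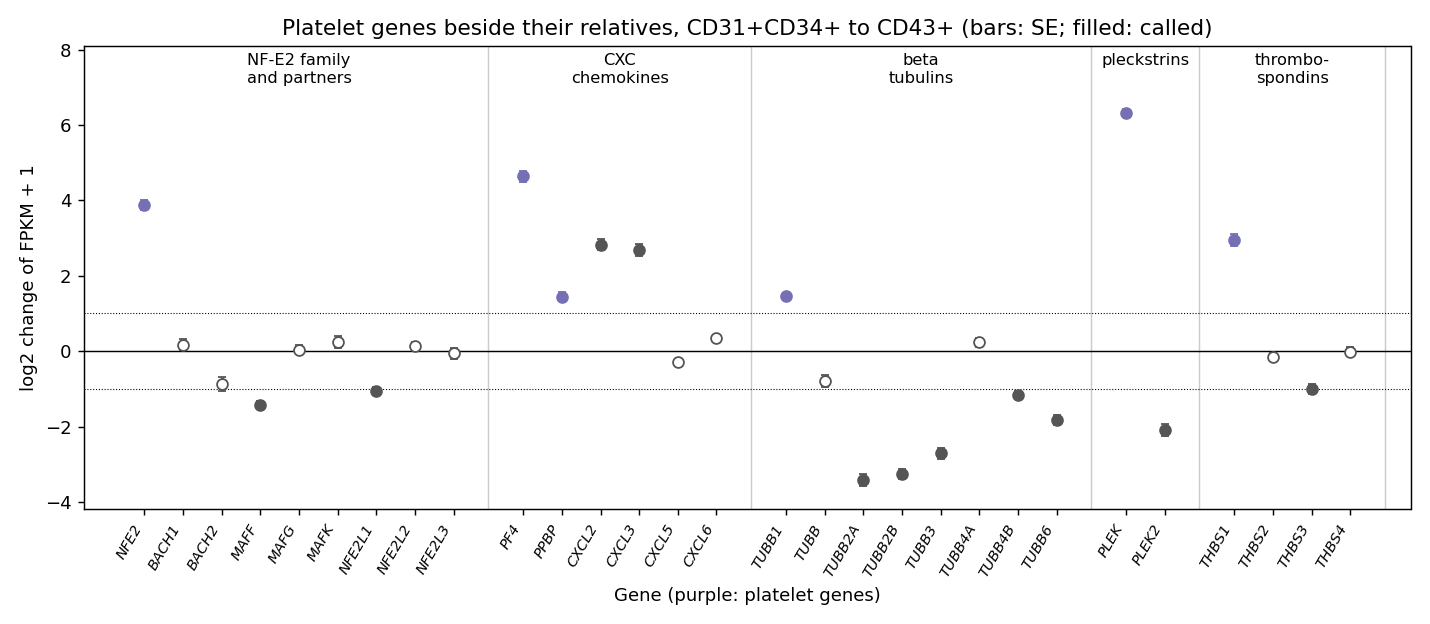
Change of log2(FPKM + 1) from CD31+CD34+ to CD43+ for the platelet genes (purple) and every tested relative (grey), with standard errors as bars, filled points for called changes and dotted lines at a 2-fold change. NFE2, TUBB1, PLEK and THBS1 lie above 1 while none of their relatives does. CXCL2 and CXCL3 rose beside PF4 and PPBP.

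The genes that work with the 10 were read from lists of platelet receptors, granule genes, cytoskeleton and activation genes and megakaryocyte transcription factors, the 10 themselves left out. Of 15 other receptors tested, 6 were called raised at the last step and 0 lowered (median 0.77), against 5.58% and 8.79% of all tested genes. The fibrinogen receptor led them. ITGA2B, its alpha chain and the earliest integrin of the lineage, went from 7.19, 12.1 and 8.84 FPKM to 567, 574 and 585 FPKM, a rise of 5.82 ± 0.20 on the log2 scale (limma adjusted p 6.56e-10). ITGB3, its beta chain, went from 0.638, 0.780 and 0.602 FPKM to 84.6, 106 and 97.3 FPKM, a rise of 5.85 ± 0.10. ITGA2B therefore stood at 41.1 to 65.2 times GP9 in the CD43+ libraries. In H1 it was already at 5.97, 6.15 and 9.18 FPKM, overlapping CD31+CD34+ cells, and in APLNR+ cells at 2.13, 3.30 and 1.74 FPKM. P2RY12, the ADP receptor of mature platelets, was listed at 0 in all 3 CD43+ libraries.

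Of 14 other granule genes tested, 4 were raised and 3 lowered at that step (median 0.47), against 5.58% and 8.79% of all tested genes. MMRN1, which binds factor V in the granule, rose by 3.22 ± 0.09, SELP, the granule membrane selectin (counted among the receptors too), by 2.63 ± 0.18, and SRGN, the granule proteoglycan, by 2.36 ± 0.10. PDGFA fell by 1.54, SPARC by 1.38 and PDGFB by 1.19 on the log2 scale. These 3 encode growth factors and a matrix protein that endothelial and mesenchymal cells also make. VWF, shared with endothelium, was at 10.7, 10.6 and 9.74 FPKM in CD31+CD34+ cells and at 8.33, 10.2 and 9.39 FPKM in CD43+ cells, and F13A1 was not tested.

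Of 21 other cytoskeleton and activation genes tested, 10 were raised and 1 lowered (median 0.95), against 5.58% and 8.79% of all tested genes. LAT, an adaptor of the collagen receptor and of T cells, rose by 3.62 ± 0.16, PTGS1, the cyclooxygenase of platelets, by 2.85 ± 0.10, and MYL9, a myosin light chain, fell by 1.14 on the log2 scale.

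Of 23 transcription factors tested, 7 were raised at the last step and 1 lowered (median 0.40), against 5.58% and 8.79% of all tested genes. At the step before, 11 were raised and 1 lowered (median 0.95), against larger shares of all tested genes, 12.5% and 17.1%. GATA1, the factor of red cells and megakaryocytes, was at 1.34, 2.30 and 1.84 FPKM in CD31+CD34+ cells and at 48.8, 65.2 and 54.2 FPKM in CD43+ cells, a rise of 4.34 ± 0.13 (adjusted p 2.28e-10). FLI1, the ETS factor of megakaryocytes and endothelium, had reached 94.6, 109 and 105 FPKM in CD31+CD34+ cells and stood at 73.7, 100.5 and 77.8 FPKM in CD43+ cells. RUNX1 rose by 1.92 ± 0.10 and GFI1B by 1.34 ± 0.16, while ZFPM1, the cofactor of GATA1, changed by 0.19 ± 0.18. MYB, a progenitor factor, rose by 2.54 ± 0.18 and IKZF1, a lymphoid and megakaryocyte factor, by 2.39 ± 0.13.

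**Figure D4:**
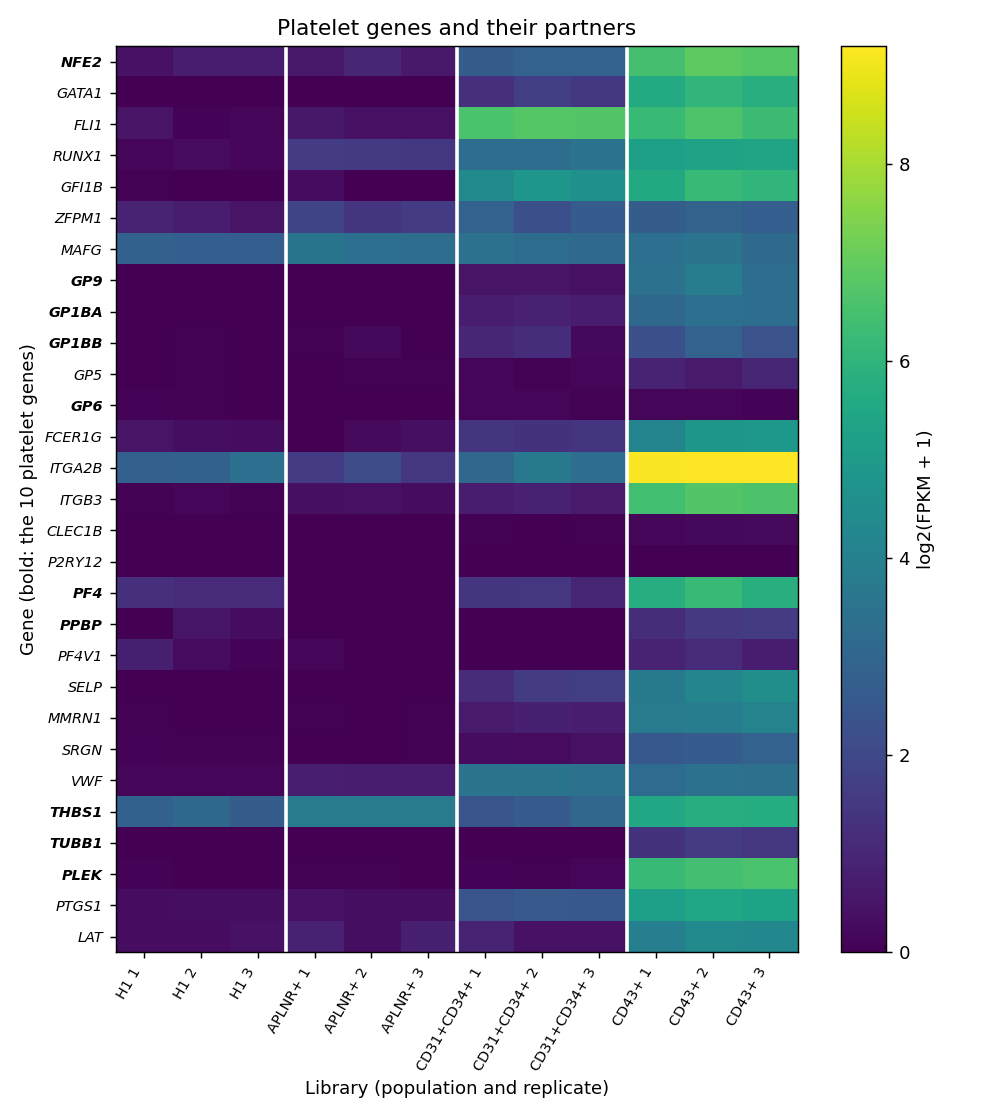
log2(FPKM + 1) of the 10 platelet genes (bold) and of partner genes in the 12 libraries, from dark (0) to bright. ITGA2B is the brightest row in CD43+ cells, FLI1 is already bright in CD31+CD34+ cells, and GP6, CLEC1B and P2RY12 stay dark in all libraries.

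Genes of other blood lineages rose in the same libraries. The 14 erythroid markers summed to between 1879 and 2339.7 FPKM in the CD43+ libraries, against 32.7 to 37.7 FPKM in CD31+CD34+ cells. From CD31+CD34+ to CD43+, 11 of the 12 tested were called raised (median 3.49). Of all tested genes, 5.58% were raised and 8.79% lowered at that step, the background for the other marker lists here as well. HBG2, a fetal globin, reached 1137, 1509.9 and 1326 FPKM and HBE1, the embryonic globin, 482, 564 and 530 FPKM. NFE2, GATA1 and GFI1B are genes of red cells as well, and the level of the erythroid list is given here beside them for that reason. The 14 myeloid markers summed to between 42.0 and 45.8 FPKM, with ELANE and FCGR3A listed at 0 and MPO at no more than 0.0813 FPKM. The 4 that were tested were all called raised, among them LYZ, a lysozyme (log2 change 2.70), and SPI1, a myeloid transcription factor (3.23). SPI1 and CSF1R were under 1 FPKM in every earlier library, and LYZ exceeded it only in CD31+CD34+ replicate 3 (1.64 FPKM). These genes therefore passed the filter only with the CD43+ libraries, so their rise was built into the selection. PLEK and FCER1G are used by myeloid cells too. The 8 mast cell and basophil markers summed to between 13.4 and 16.3 FPKM, with TPSAB1 and CLC listed at 0, and HDC was the 1 raised of 3 tested. The 8 lymphoid markers summed to between 4.04 and 4.83 FPKM, with MS4A1 listed at 0. The 12 endothelial markers, which share VWF with the granule list and ESAM with the receptors, summed to between 437 and 556 FPKM in CD43+ cells and between 768 and 1023 FPKM in CD31+CD34+ cells, with 2 raised and 6 lowered. The 8 pluripotency markers fell from a sum of 2493 to 2603 FPKM in H1 to between 178 and 207 FPKM in CD43+ cells. The part of each of these cell types in the levels of the platelet genes was not tested.

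**Figure D5:**
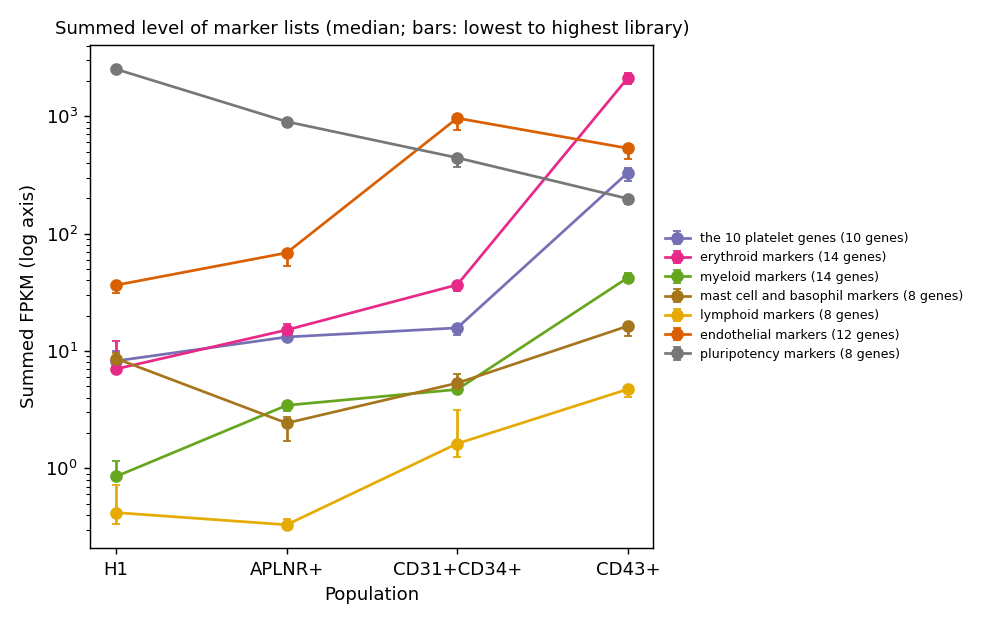
Summed FPKM of the 10 platelet genes and of 6 marker lists on a log axis, as the median of the 3 libraries with bars from the lowest to the highest. In CD43+ cells the erythroid list stands highest, above 1879 FPKM, the platelet genes lie between 283 and 364 FPKM, and the myeloid, mast cell and lymphoid lists lie below them. The lists differ in length and the platelet sum leaves out ITGA2B and ITGB3, so the sums do not rank the lineages.

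The genes whose pattern over the 12 libraries was nearest to each tested member were found by the root mean square difference of log2(FPKM + 1), each gene centered on its own mean. NFE2 lay nearest to SPN (0.256), the gene of the sorting marker CD43, and to GATA1 (0.312). PLEK lay nearest to ITGB3 (0.24) and to DLK1 (0.359), a Notch-related membrane protein. GP9 lay nearest to TNFAIP8L2 (0.102), an immune regulator, and SPI1 (0.135), and GP1BA to TREML2 (0.113), a myeloid receptor, and WAS (0.142), an actin regulator of blood cells. PF4 lay nearest to TYROBP (0.488), a signaling adaptor of myeloid cells, and LST1 (0.501). For GP1BB these were NINJ2 (0.236) and EMCN (0.248), for THBS1 PLP2 (0.337) and ANGPT1 (0.339), for PPBP RASAL3 (0.145) and ALOX15 (0.152), and for TUBB1 PPIF (0.0633) and CARD9 (0.0705). Small differences come with small changes on this scale, so the values are not comparable between members. The 12 libraries fall into 4 populations, so they are not independent points.

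Within CD43+ cells, most members were highest in the same library. Of the 10 genes, 8 were highest in replicate 2, which was the highest library for 43.0% of all tested genes. Likewise 8 were lowest in replicate 1, as were 53.0% of tested genes. The coefficient of variation over the 3 libraries ran from 8.4% for THBS1 to 31.5% for GP1BB, against a median of 13.5% over the 12345 tested genes that averaged at least 1 FPKM in CD43+ cells.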

How the data were processed

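RNA was measured in 12 libraries, grouped by sample title. The authors deposited 1 table of FPKM values for the whole series. Per the submitters' processing notes it was made with BWA, Bowtie and RSEM on hg19, with versions, annotation and scaling not given in the sources used here. Of 58366 lines, 1 of text was left out, and for each of 345 repeated symbols only the line of highest mean entered. FPKM are not counts, so no count model was run, and absolute depth is unknown.

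Genes reaching 1 FPKM in at least 3 libraries were fitted with limma 3.58.1 in R 4.3.3 on log2(FPKM + 1), all 4 populations in 1 model with trend, with Benjamini-Hochberg adjustment over 14840 genes, and the fit was tested on simulated data. Precision is limited by 3 libraries per population. Members and gene lists were chosen with earlier results of these data known. Named genes were the members, stated partners, the nearest genes, and up to 3 rises and 3 falls per list among called genes at the last step. Some list genes are not reported here. Genes named for overlap with a member, and other list genes such as CXCL5, CD36, VWF, MPO, CLEC1B and P2RY12, were added after their values were seen. All same-numbered libraries deviated together between CD31+CD34+ and CD43+ (r 0.392, 0.205 and 0.192) and between H1 and CD43+ (0.386, 0.247 and 0.174). The r were uneven from H1 to APLNR+ (0.429, 0.23 and -0.021) and from APLNR+ to CD31+CD34+ (0.196, 0.025 and 0.04). Some libraries of unlike number also deviated together, such as CD31+CD34+ 2 with CD43+ 3 (0.161) and H1 2 with APLNR+ 3 (0.276). Stretches of 50 bases and exon overlap came from GENCODE release 29, which is on another build than hg19, so they describe the genes and not the counting. Python 3.11.15, pandas 2.3.3 and matplotlib 3.10.9 read the table and drew the figures.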

Additional observations from a re-analysis of the deposited data

How the results depend on the processing

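The calls at the last step held under most settings. The counts of members called from CD31+CD34+ to CD43+ and from H1 to CD43+ stayed at 9 raised and 0 lowered with a pseudocount of 0.1, no filter, upper-quartile scaling, quantile normalization, and small RNA and mitochondrial genes left out. At a 4-fold minimum the raised counts were 6 from CD31+CD34+ to CD43+ and 7 from H1 to CD43+. With the replicate number as a block, which pairs the libraries of these 2 comparisons, they were again 9 and 0, and the block moved no count of members at the earlier steps. Both counts of raised members were 4 where a mean of at least 5 FPKM was asked, because only 4 members were then tested. They were also 4 with replicates 2 and 3 alone or without any single CD43+ library when the filter was applied again to the remaining libraries, a setting chosen after seeing the data that leaves 4 members to test. Leaving out single libraries gave 4 to 9.

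From H1 to APLNR+, 1 was raised (THBS1, 1.06) with small RNA and mitochondrial genes left out and 1 with no minimum change, and 2 were lowered with a pseudocount of 0.1 (PPBP added, -1.41) and 0 at 4-fold. From APLNR+ to CD31+CD34+, 5 were raised with a pseudocount of 0.1, 5 with no minimum change, 1 at 4-fold and 1 with the compared populations alone and the filter applied again, and single libraries left out gave 2 to 3 (GP1BB reached 1.01 without CD31+CD34+ replicate 3). The 1 lowered there was 0 at 4-fold, with replicates 2 and 3 alone, with or without the filter applied again, and 0 to 1 over single libraries left out. No direction reversed. At the 2-fold limit, of 1218 values of single members under alternatives, 1207 kept their side of the threshold, 4 lost a call and 7 gained one.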
